A study of Mus musculus with 40 samples.

Results

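The jejunum of untreated mice differed widely in its level of gasdermin C4 (Gsdmc4), and the genes that rose and fell with it are described here across 20 saline arrays of 40 arrays in all. The order of the 20 arrays was chosen by the measured log2 signal of the brightest transcript cluster, the unit into which the array groups its probes, that carries the symbol Gsdmc4 alone. The Gsdmc4 levels and the order they give are therefore a description and were not tested. The mice were 10–12 weeks old females on a C57BL/6N background (backcrossed for more than 10 generations), either Sftpd-/- (KO), which lack surfactant protein D in every tissue, or Sftpd+/+ littermates (WT). They received isotonic saline into the peritoneum as the control for doxorubicin at 20 mg/kg, and were killed on day 3 or day 7. The 4 saline groups WT-NaCl3, KO-NaCl3, WT-NaCl7 and KO-NaCl7 held 5 mice each, with 1 Affymetrix Mouse Transcriptome Array of jejunal RNA per mouse, and mice are named by their group and number. The 20 doxorubicin arrays of the same design, from other mice, were not used for the order and serve as a separate set. Saline is called untreated here because no drug was given, although every mouse had an injection.

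Gasdermins are proteins whose released N-terminal part can form pores in membranes, which lets cells secrete their content or die. The mouse has several gasdermin C genes side by side on chromosome 15, and in the intestine they are known as epithelial genes that respond to the type 2 cytokines interleukin-4 and interleukin-13. Pla2g4c encodes a calcium-independent cytosolic phospholipase A2, which frees fatty acids from membrane phospholipids. Duox2 is the oxidase that makes hydrogen peroxide at the apical surface of the gut epithelium, and Duoxa2 is the maturation factor it needs to reach that surface.

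Signals were on the log2 scale, on which 1 unit is a 2-fold change. Background was given by 23 probe sets (mean 3.45, highest 6.99), and a signal under that value was not clearly above background. Array medians lay between 4.38 and 4.58, and the correlation between any pair of saline arrays was between 0.9752 and 0.9948. The lowest mean correlation with the other saline arrays, 0.9821, belonged to mouse KO-NaCl3 254, which also stood apart in its secretory genes: the mean of 10 Paneth cell markers was 12.26 in this mouse and 16.11–17.23 in the other 19. The Sftpd signal was between 3.83 and 4.31 in the saline mice, below the highest background value in WT and KO alike, so that it checks no genotype label. The mean of 12 genes of epithelial identity lay between 13.90 and 14.46. Because whole tissue was measured, more cells of a type and more RNA per cell cannot be told apart.

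The start regions of the genes that moved most with Gsdmc4 are shown first, to place them in the genome. Each window runs from 250 bases before to 50 bases after a RefSeq start site (GRCm38.p6), printed 5′ to 3′ on the gene's own strand, and capitals mark matches of a searched motif on either strand. Gsdmc4 itself lay at chr15:63891265-63912297 on the minus strand, beside Gsdmc3 (chr15:63857725-63878558), Gsdmc2 (chr15:63824346-63845176) and Gsdmc (chr15:63775971-63808759). The window of Gsdmc3 (chr15:63878509-63878808, minus strand) holds the TATA box letters TATATAA at position -29 from the start site. Duox2 (chr2:122279247-122298449, minus strand) and Duoxa2 (chr2:122298900-122302885, plus strand) point away from each other, with start sites 673 bases apart. The window of Duoxa2 (chr2:122298650-122298949) holds TATAAAA at position -30, and those of Duox2 (chr2:122298178-122298477) and Pla2g4c (chr7:13325417-13325716, plus strand, the first of 2 windows of this gene) hold none of the motifs searched.
Gsdmc3: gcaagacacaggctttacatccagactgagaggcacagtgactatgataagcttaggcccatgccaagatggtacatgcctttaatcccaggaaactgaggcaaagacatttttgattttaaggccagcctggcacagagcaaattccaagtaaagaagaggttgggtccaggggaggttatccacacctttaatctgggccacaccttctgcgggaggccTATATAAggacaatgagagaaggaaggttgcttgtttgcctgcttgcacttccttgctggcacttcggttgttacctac
Pla2g4c: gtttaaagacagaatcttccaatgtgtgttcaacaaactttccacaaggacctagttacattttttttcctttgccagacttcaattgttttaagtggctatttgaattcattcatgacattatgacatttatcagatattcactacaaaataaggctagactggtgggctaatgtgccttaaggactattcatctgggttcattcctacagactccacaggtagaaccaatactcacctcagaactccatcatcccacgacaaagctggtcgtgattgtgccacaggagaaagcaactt
Duox2: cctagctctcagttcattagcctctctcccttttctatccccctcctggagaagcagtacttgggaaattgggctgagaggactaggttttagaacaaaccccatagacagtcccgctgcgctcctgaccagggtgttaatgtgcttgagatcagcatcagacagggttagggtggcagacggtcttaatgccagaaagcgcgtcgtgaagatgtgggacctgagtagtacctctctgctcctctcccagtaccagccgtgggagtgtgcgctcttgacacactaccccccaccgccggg
Duoxa2: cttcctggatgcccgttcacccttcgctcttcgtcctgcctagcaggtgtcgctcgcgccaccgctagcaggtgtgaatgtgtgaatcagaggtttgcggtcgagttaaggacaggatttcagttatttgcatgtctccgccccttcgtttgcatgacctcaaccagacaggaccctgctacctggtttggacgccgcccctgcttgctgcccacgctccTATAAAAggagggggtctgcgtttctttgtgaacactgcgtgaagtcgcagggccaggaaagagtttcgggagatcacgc

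The 4 falling genes with the letters GAAANNGAAA of the interferon response element in their window included 3 antiviral or interferon-induced genes, shown here. The other, Apol11a, holds the motif at position -50 and is not printed. Rsad2 (chr12:26456403-26456702, minus strand) holds it at position -120, Igtp (chr11:58199306-58199605, plus strand) at -34 and Ifit1 (chr19:34640639-34640938, plus strand) at both -104 and -85. The Igtp window also holds TTCTAGGAA at -45, a match of TTCNNNGAA, the letters bound by STAT factors.
Rsad2: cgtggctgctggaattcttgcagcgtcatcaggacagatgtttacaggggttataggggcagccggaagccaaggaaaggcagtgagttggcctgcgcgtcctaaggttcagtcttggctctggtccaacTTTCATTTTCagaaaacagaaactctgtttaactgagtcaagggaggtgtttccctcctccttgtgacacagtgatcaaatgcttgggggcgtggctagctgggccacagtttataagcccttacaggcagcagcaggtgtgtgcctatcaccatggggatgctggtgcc
Igtp: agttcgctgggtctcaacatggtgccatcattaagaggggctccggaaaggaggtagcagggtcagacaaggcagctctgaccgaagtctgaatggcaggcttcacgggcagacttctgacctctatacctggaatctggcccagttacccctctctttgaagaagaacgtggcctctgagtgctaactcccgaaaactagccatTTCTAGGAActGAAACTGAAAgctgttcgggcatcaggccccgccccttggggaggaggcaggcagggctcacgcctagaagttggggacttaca
Ifit1: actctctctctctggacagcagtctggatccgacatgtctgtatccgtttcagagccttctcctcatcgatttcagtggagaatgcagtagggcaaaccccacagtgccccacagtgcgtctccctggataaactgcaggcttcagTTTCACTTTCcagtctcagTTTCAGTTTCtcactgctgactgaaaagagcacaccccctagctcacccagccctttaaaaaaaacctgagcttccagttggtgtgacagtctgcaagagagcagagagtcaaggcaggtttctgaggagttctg
The letters GAAANNGAAA occur in 3.4% of all 32851 windows and, per gene, in 4.0% of the 27025 genes with a window, in 4 of 48 falling genes (8.3%) and in 5 of 104 rising genes (4.8%). TTCNNNGAA occurs in 9.6% of all genes with a window, in 6.2% of the falling and 11.5% of the rising genes, and TTCNNNNGAA in 8.0%, 4.2% and 11.5%. TATANAA occurs in 13.1% of all genes with a window, in 14.6% of the falling and 7.7% of the rising genes, and the clock factors' E-box CACGTG in 8.1%, 6.2% and 6.7%. Over all windows these 4 motifs occur in 8.3%, 7.0%, 11.3% and 7.2%. A match is a description of the letters and not a binding site.

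Gsdmc4 spanned 6.04 log2 units in the 20 saline mice. Mice WT-NaCl3 46 (13.04) and WT-NaCl3 44 (13.26) were lowest, followed after a gap by KO-NaCl3 254 (15.24), WT-NaCl3 190 (16.02), WT-NaCl7 296 (16.49), WT-NaCl3 14 (16.53), KO-NaCl3 220 (16.74), KO-NaCl7 42295 (16.86), WT-NaCl7 28 (16.92) and WT-NaCl3 170 (17.17). The upper 10 began with KO-NaCl7 200 and WT-NaCl7 112 (both 17.71) and went on with KO-NaCl7 272 (17.79), KO-NaCl7 224 (17.80), KO-NaCl3 182 (18.12), KO-NaCl3 292 (18.19), KO-NaCl3 168 (18.20), KO-NaCl7 114 (18.33), WT-NaCl7 104 (18.53) and WT-NaCl7 206 (19.08). The mean was 15.20 ± 1.92 (SD, n = 5) in WT-NaCl3, 17.30 ± 1.31 in KO-NaCl3, 17.75 ± 1.08 in WT-NaCl7 and 17.70 ± 0.53 in KO-NaCl7. The ranges of the 4 groups overlapped, and the 5 WT-NaCl3 mice were among the lower 10 of the order. Day 3 mice ran from 13.04 to 18.20 and day 7 mice from 16.49 to 19.08. Within groups, Gsdmc4 had the 108th largest SD of 36155 genes, at 1.31 against a median gene's 0.21.

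To leave day and genotype out of the relation, a slope on Gsdmc4 was fitted beside a mean for each of the 4 groups in limma, in log2 units of the gene per log2 unit of Gsdmc4. With Benjamini-Hochberg adjustment over 65955 clusters at a threshold of 0.05, 180 clusters (0.273%) rose with Gsdmc4 and 82 (0.124%) fell. In genes, each taken at its brightest cluster with 1 symbol, 155 rose and 68 fell. Of the 10467 genes over the highest background value, 120 rose (1.15%) and 51 fell (0.487%). The median slope of these 10467 genes was -0.02.

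These counts rested on few mice and moved with a tissue measure. Without KO-NaCl3 254, 30 of the 155 rising and 5 of the 68 falling genes were still called. Without WT-NaCl7 296, 40 and 7 were, and without the 2 lowest mice 93 and 15. The sign of the slope was the same for each of the 223 genes in these settings. The mean of 11 smooth muscle genes rose with Gsdmc4 itself (r = 0.82, rho = 0.78, permutation p = 1e-05 and 7e-05, adjusted over 10 array measures 0.0001 and 0.0007, n = 20; r = 0.69 without the 2 lowest mice), and with it as a covariate limma called only Gsdmc2, Gsdmc3 and Pla2g4c. In that fit 222 of the 223 genes kept their sign, at a median of 0.735 of the slope without the covariate. The permutation tests of the smooth muscle mean permuted the mice without regard to group. Called whichever of the 20 mice was left out were 27 rising and 4 falling genes.

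Gsdmc2 and Gsdmc3 followed Gsdmc4 almost unit for unit. Gsdmc2 was at 11.97 and 12.44 in the 2 lowest mice and at 18.58 in WT-NaCl7 206, with a median of 16.49. Gsdmc3 ran from 11.32 and 11.73 in the same mice to 18.16, with a median of 15.94. The slope was 1.05 ± 0.033 (SE) for Gsdmc2 and 1.08 ± 0.032 for Gsdmc3, and Spearman's rho over the 20 arrays was 0.992 and 0.996. These genes are neighbours of Gsdmc4 in the same family. How alike their sequences are, and whether probes are shared between them, was not tested. Their slopes are therefore a description and support nothing about the other genes.

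The more distant Gsdmc was low, between 4.52 in WT-NaCl3 46 and 8.74 in KO-NaCl7 114 with a median of 6.90, itself under the highest background value. It rose with a slope of 0.52 ± 0.099 (adjusted p = 0.03 in limma) and lost its call without any 1 of 6 mice. Gsdmd, the gasdermin that inflammatory caspases cut, had a slope of -0.25 ± 0.082 (adjusted p = 0.266). The other 5 measured family members were not over background, with slopes between 0.02 and 0.04. The family list thus held 3 rising and 0 falling genes of 9 measured.

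Pla2g4c varied more between mice of a group than any other of 36155 genes, with a within-group SD of 3.39. It was at 5.46 and 5.99 in the 2 mice lowest in Gsdmc4, both under the highest background value, and at 11.21, 15.07, 12.70, 13.83, 14.41, 13.63, 15.53 and 16.47 in the next 8. The upper 10 of the order held 17.29, 16.98, 16.13, 16.64, 18.28, 17.95, 18.19, 17.72, 18.36 and 18.85. No mouse of the upper 10 was under 16.13, and 1 mouse of the lower 10, WT-NaCl3 170, was above that value.

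The slope of Pla2g4c was 2.53 ± 0.13 (adjusted p = 3.22e-09 in limma), and it stayed called without any 1 mouse. Over the 20 arrays Pearson's r was 0.977 and Spearman's rho 0.950, each with a permutation p of 1e-05, the smallest that 100000 resamples can give. The mice were permuted without regard to group, and the gene is also among those of highest rho given below. Without the 2 lowest mice, r was 0.929 and rho 0.931, and within day 3 and day 7 rho was 0.927 and 0.900 (10 mice each). With the smooth muscle mean as a covariate its adjusted p was 0.000139, and with the clock covariate described below 2.48e-06. The calcium-dependent relative Pla2g4a had a slope of 0.09 (adjusted p = 0.589), and the other 2 measured cytosolic phospholipases, Pla2g4d and Pla2g4f, were at background. None of 13 secreted and other phospholipases A2 passed the test.

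**Figure D1:**
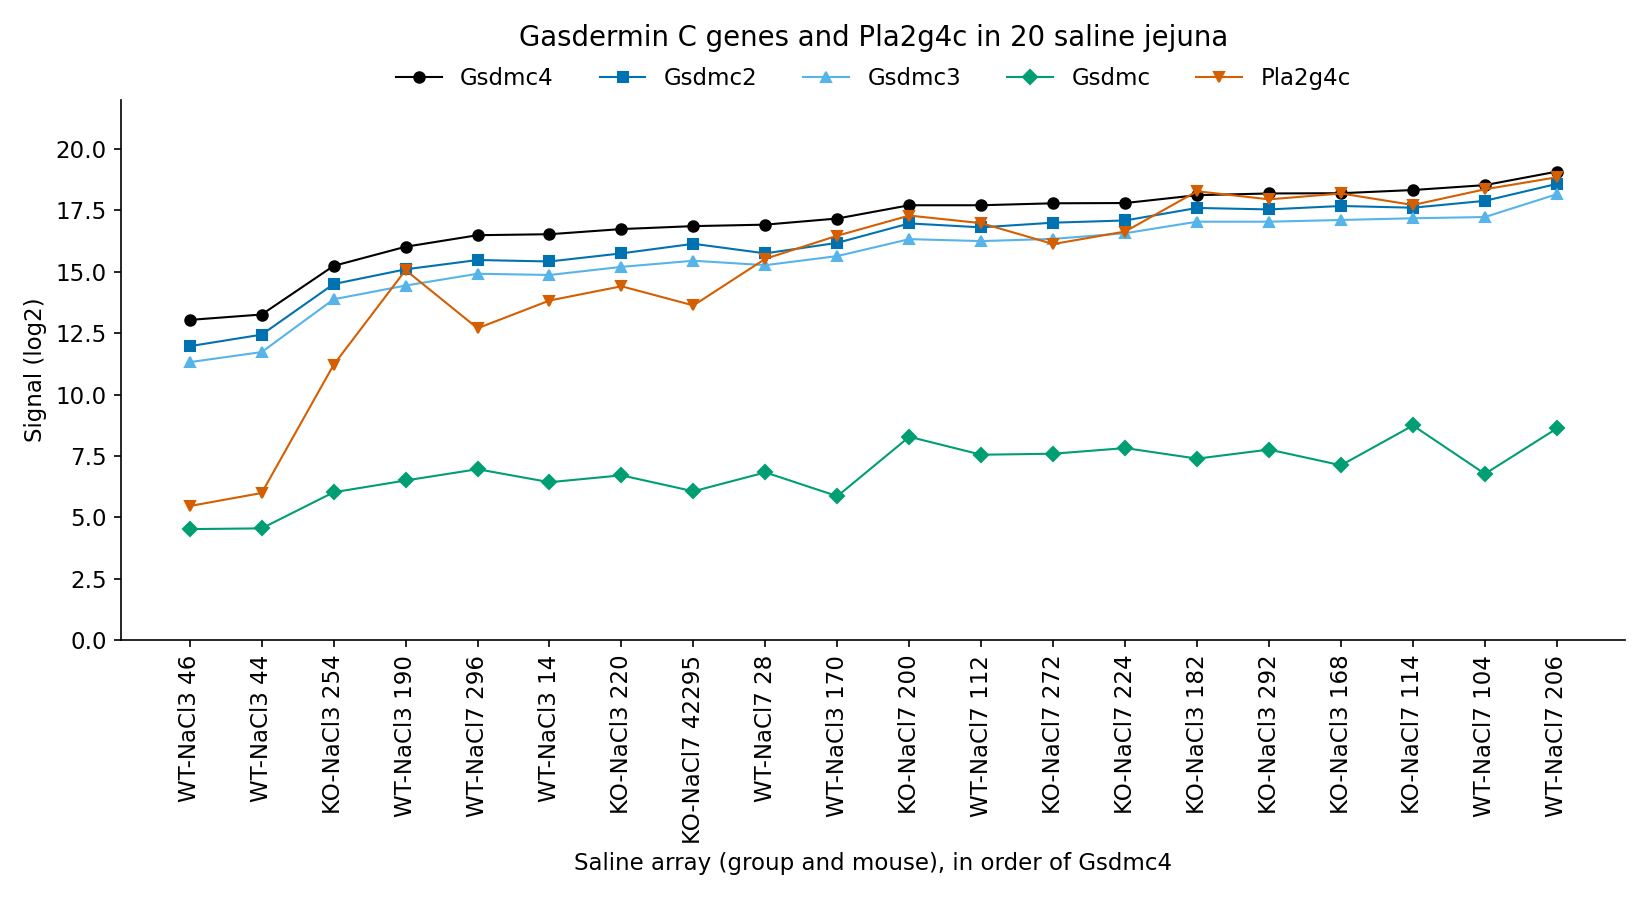
Log2 signal (y axis) of Gsdmc4, Gsdmc2, Gsdmc3, Gsdmc and Pla2g4c in each of the 20 saline mice, ordered from left to right by Gsdmc4 (x axis, group and mouse number). Each point is 1 array. Pla2g4c is at 5.46 and 5.99 in the 2 leftmost mice, under the highest background value, and at 18.36 and 18.85 in the 2 rightmost. Levels of different genes are not comparable on this axis.

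Duox2 and Duoxa2, the oxidase and its maturation factor, rose with the next smallest p. Duox2 was at 11.67, 11.98 and 12.78 in the 3 mice lowest in Gsdmc4 and at 15.84, 16.26 and 16.97 in the 3 highest, with a median of 15.28. Duoxa2 was at 11.93, 12.46 and 13.32 and at 16.68, 17.36 and 17.70 in the same mice, with a median of 16.41. The 3 lowest mice lay below each of the other 17 for both genes. The slope was 0.93 ± 0.077 for Duox2 and 1.05 ± 0.088 for Duoxa2 (adjusted p = 4.94e-06 for both in limma), and both stayed called without any 1 mouse. With the smooth muscle covariate, their slopes were 0.66 and 0.76, with adjusted p of 0.09 and 0.0991. Duox1, the other dual oxidase, rose with a slope of 0.22 (adjusted p = 0.0216).

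Beside this pair, the 25 measured genes of the epithelial response to bacteria and interleukin-22 split. Fut2, the enzyme that adds fucose to surface glycans, rose from 5.45 in WT-NaCl3 46 to 9.93 in WT-NaCl7 206 (median 7.46) with a slope of 0.70 ± 0.12 (adjusted p = 0.0163 in limma). It lost its call without KO-NaCl3 254. Reg3a, an antimicrobial lectin, fell with a slope of -0.60 ± 0.13 (adjusted p = 0.0476) from 13.47 in KO-NaCl3 254 to 9.07 in WT-NaCl7 104, and lost its call in 15 of the 20 fits that left out a mouse. Its relatives Reg3g and Reg3b had slopes of -0.75 and -0.54 with adjusted p of 0.397 and 0.526. In all, 3 genes of this list rose, 1 fell and 21 did not pass, and the median slope was -0.06.

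Other genes of secretory cells were among the steepest. Reg4, a lectin of secretory epithelial cells, had a slope of 1.03 ± 0.18 (adjusted p = 0.018 in limma). It was lowest in KO-NaCl3 254 (12.09), next lowest in the 2 mice lowest in Gsdmc4 (13.39 and 14.59), and highest in WT-NaCl7 206 (18.80), with a median of 16.87. Retnlb, a protein that goblet cells secrete in response to type 2 cytokines, had a slope of 0.85 ± 0.15 (adjusted p = 0.0224). It was at 3.81 in the lowest mouse and 7.38 in the highest in Gsdmc4, with its own highest value, 9.46, in KO-NaCl3 182, and its median of 6.70 was under the highest background value. Both lost their call without KO-NaCl3 254 and without WT-NaCl7 296.

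Of 15 goblet cell markers, matched by symbol, 5 rose and 0 fell, with a median slope of 0.25 and a median rho of 0.78. Of the 10467 genes over background, 1.15% rose. The 5 were Bcas1 (slope 0.27), the secretory transcription factors Creb3l1 (0.34) and Spdef (0.28), the vesicle protein Sytl2 (0.25) and the mucin glycosyltransferase Galnt12 (0.21), with adjusted p between 0.00791 and 0.0442 in limma. The mean of the goblet list ran from 11.54 in KO-NaCl3 254 to 13.11 in WT-NaCl7 206. Capn13, a calpain protease, rose from 8.45 in WT-NaCl3 44 to 14.54 in WT-NaCl7 206 (median 11.53) with a slope of 1.02 ± 0.12 (adjusted p = 0.000484) and stayed called without any 1 mouse. Guca2a, which encodes the hormone guanylin, rose with a slope of 0.46 (adjusted p = 0.00632).

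None of the 20 measured tuft cell markers passed the test, although 18 had a positive slope, the median slope was 0.21 and the median rho 0.70. Tuft cells are the chemosensory epithelial cells that release interleukin-25. Of the defining markers, Dclk1 had a slope of 0.35 (adjusted p = 0.233 in limma), Pou2f3 0.32 (0.114) and Trpm5 0.14 (0.611), and 13 of the 20 markers were not over background. The list mean was between 5.70 in WT-NaCl3 46 and 7.63 in KO-NaCl3 182, and its median slope was 0.16 within day 3 and 0.43 within day 7. As deviations from group means, the list mean had an r with Gsdmc4 of 0.60 in saline mice and 0.62 after doxorubicin. Pou2f3, taken by its small slope p, had an r of 0.77 and a rho of 0.87 over the 20 arrays, and an r of 0.75 without the 2 lowest mice. The permutation p was 1e-05 for both over the 20 arrays, but the mice were permuted without regard to group. Its rho was 0.945 within WT and 0.648 within KO mice. Of 13 type 2 cytokines and lymphoid cell genes, 0 passed and 12 were not over background, Il4, Il5, Il13 and Il25 among them. Of 15 listed genes of the epithelial response to interleukin-4 and interleukin-13, matched by symbol, Retnlb alone rose, with a list median of 0.07. Clca3, a goblet cell product called in saline mice and described below, was in neither this list nor the goblet list under that symbol. Both lists hold Clca1. The array carries older symbols for some genes, so a listed gene can meet another gene's cluster of the same name. Whether this holds for Clca1 and Clca3 was not tested, and the counts of both lists are by symbol. None of 10 Paneth cell markers passed (median slope 0.36, but -0.02 within day 7), nor did any of 14 enteroendocrine genes.

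The lipase gene Pnliprp2, first known from pancreas, was the steepest riser after Pla2g4c that carries a gene name. It was at 11.52 in KO-NaCl3 254, 12.96 and 13.37 in the 2 mice lowest in Gsdmc4 and 18.99 in WT-NaCl7 206, with a median of 17.08 and a slope of 1.21 ± 0.17 (adjusted p = 0.00346 in limma). It stayed called without any 1 mouse. Pnliprp1, not over background (mean 6.68), rose with a slope of 0.90 ± 0.19 (adjusted p = 0.0499) and lost its call in 16 of 20 fits without 1 mouse. Clps, the colipase, had a slope of 0.83 (adjusted p = 0.0676). The other 11 of 12 pancreatic enzymes measured were not over background, and the mean of the 12 was between 5.01 and 5.31 outside KO-NaCl3 254 (4.63). Gene by gene, the 12 had a median slope of 0.008 and a median rho of -0.058, with 7 positive and 5 negative slopes. Clps, the only 1 of the 12 over background, was at 11.62 in KO-NaCl3 254, where the mean was lowest. It was at 18.73 in WT-NaCl7 206, where the mean was highest. The mean is thus not a measure of pancreatic enzymes in general, and the mean without Clps was not tested. The mean of the 12 rose with Gsdmc4 by rank (rho = 0.61, permutation p = 0.00502, adjusted over 10 array measures 0.0251, n = 20), with r = 0.58 (p = 0.0145, adjusted 0.0725) and r = 0.64 without the 2 lowest mice. Here too the mice were permuted without regard to group, and the part of this mean in the slopes was not tested.

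Metabolic genes among the steepest risers were Me1, the malic enzyme that makes NADPH for lipid synthesis (slope 0.78, adjusted p = 0.0178 in limma), Acss1, a mitochondrial enzyme that activates acetate (0.68, 0.00166), and the cytochrome P450 Cyp2u1 (0.53, 0.0345). Tns4, a tensin of focal adhesions, rose as well (0.74, 0.0313). Me1 was the only called gene of 16 lipid synthesis genes, whose median slope was 0.10.

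**Figure D2:**
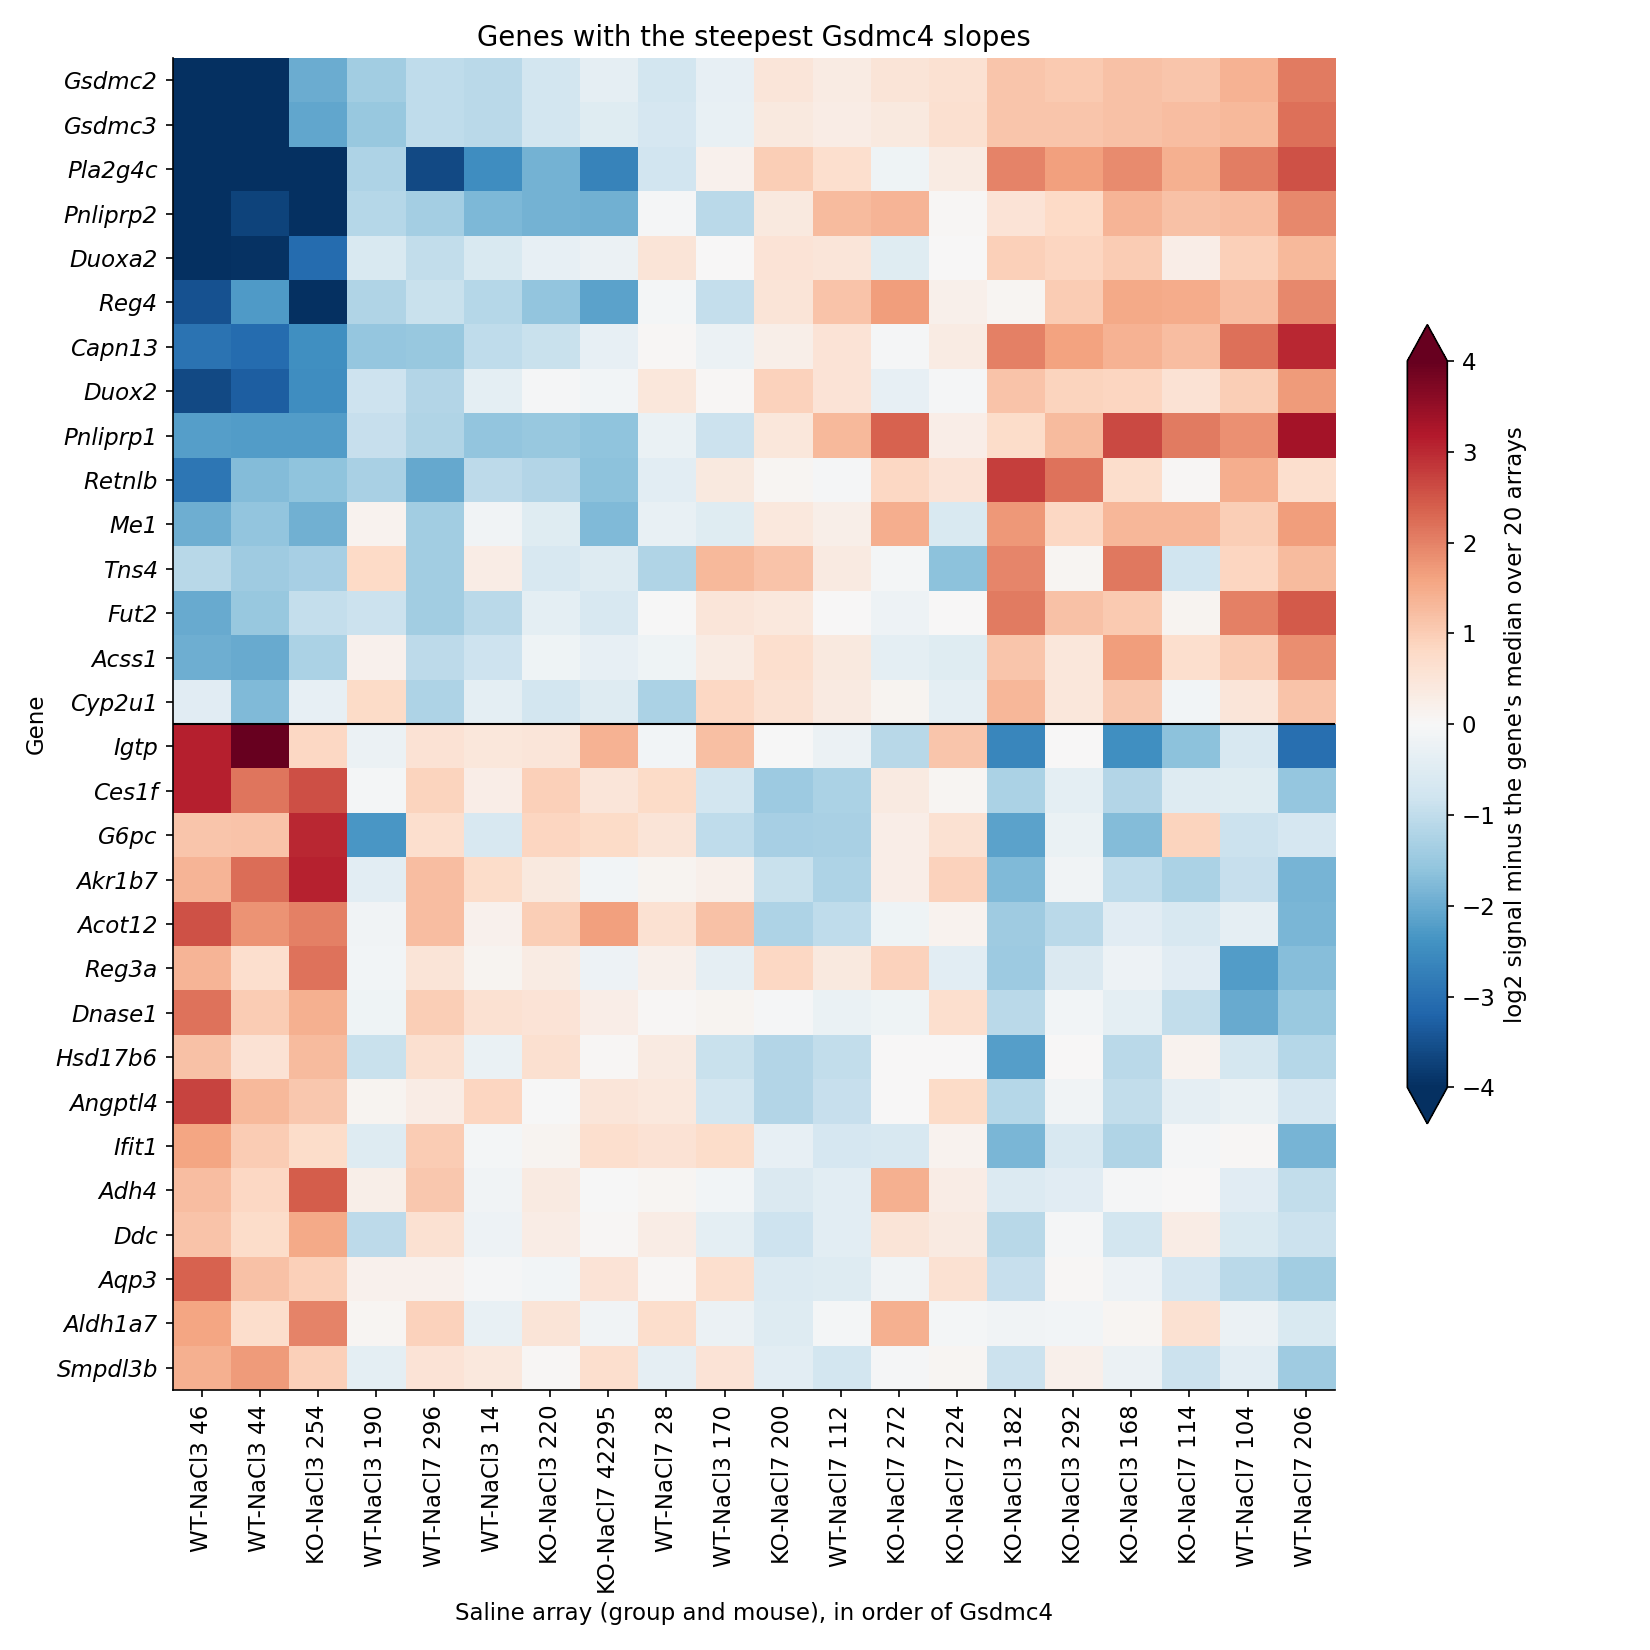
Log2 signal minus the gene's own median over the 20 saline mice (colour, from -4 to 4, values beyond shown at the ends) for the 15 named genes with the steepest rising slopes (above the line) and the 15 with the steepest falling slopes (below it). Columns are mice in order of Gsdmc4, and the rows were picked on this slope, so that the shift from blue to red above the line and from red to blue below it is a description.

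Genes of smooth muscle also rose with Gsdmc4. Of 11 smooth muscle genes, 6 rose and 0 fell, where 1.15% of the 10467 genes over background rose. The 6 were Tagln (slope 0.25), Myh11 (0.26), Des (0.25), Synpo2 (0.18), Cnn1 (0.31) and Actg2 (0.29), with adjusted p between 0.024 and 0.048 in limma. Myh11, the smooth muscle myosin, was at 13.44 and 13.18 in the 2 mice lowest in Gsdmc4 and highest, at 14.93, in KO-NaCl3 182, with a median of 14.15. The list mean ran from 10.78 to 11.45 in WT-NaCl3, 10.95 to 11.99 in KO-NaCl3, 11.06 to 11.78 in WT-NaCl7 and 11.17 to 11.55 in KO-NaCl7. Of 11 fibroblast and endothelial genes, 0 passed, with a median slope of 0.18, and Col3a1 was nearest (slope 0.25, adjusted p = 0.0678). None of 12 genes of enteric neurons and glia passed, and 11 of them were not over background.

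The genes with the highest rho over the 20 arrays, chosen by that value and so given without a p, were Gsdmc3, Gsdmc2, Kit and Capn13 (both 0.967), Stim2 (0.961), Pde2a (0.955), Pla2g4c, Antxr1 (0.936), Fermt2 (0.934) and Car8 (0.933). Kit is the stem cell factor receptor of mast cells and of the pacemaker cells of gut muscle, Stim2 a calcium sensor of the endoplasmic reticulum, Pde2a a cyclic nucleotide phosphodiesterase, Antxr1 a matrix-binding receptor and Fermt2 an integrin activator. Kit rose in small steps, from 7.76, 7.90 and 7.99 in the 3 mice lowest in Gsdmc4 to 9.35, 9.38 and 9.74 in the 3 highest (median 8.84, slope 0.33 ± 0.054, adjusted p = 0.0129 in limma). Its rho was 0.988 within day 3 and 0.912 within day 7, and its r without the 2 lowest mice was 0.956. The other 13 measured genes of eosinophils and mast cells did not pass. Of those that define mast cells, Mcpt1 was over background and Mcpt2 and Cpa3 were not. Fermt2 did not pass the slope test (adjusted p = 0.076).

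Igtp fell most steeply, and other interferon response genes fell as well. Igtp, an interferon-induced GTPase that guards against intracellular pathogens, was at 12.71 and 14.05 in the 2 mice lowest in Gsdmc4, between 9.36 and 10.98 in the next 8 and at 7.96, 8.96 and 6.59 in the 3 highest, with a median of 9.60. Its slope was -0.96 ± 0.18 (adjusted p = 0.0247 in limma). Ifit1, which binds viral RNA, had a slope of -0.51 ± 0.11 (0.0474) with values from 9.70 down to 6.27, and the antiviral enzyme Rsad2, whose mean of 6.64 was not over background, had a slope of -0.37 ± 0.065 (0.0194) with values from 8.00 down to 5.64. Each of the 22 measured interferon response genes, 13 of them over background, had a negative slope, with a median of -0.17, and 3 passed the test. Of the 10467 genes over background, 0.487% fell. The mean of the list was 8.75 and 8.95 in the 2 lowest mice and at most 8.39 in the others. Igtp lost its call without any 1 of 4 mice, Rsad2 of 3 and Ifit1 of 18, and none of the 3 was called without the 2 lowest mice (adjusted p between 0.087 and 0.151).

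Genes of lymphocytes and antigen presentation had negative slopes without passing the test. Of 16 genes of T cells and intraepithelial lymphocytes, 6 of them over background, 0 passed, 15 were negative and the median rho was -0.67. Itgae, Cd8a and Gzma had slopes of -0.20, -0.21 and -0.44 with adjusted p of 0.114, 0.145 and 0.181 in limma, and Itgae was not over background. The list mean was 7.71 and 7.86 in the 2 lowest mice and 6.05–7.65 in the others. Of 8 genes of MHC class II presentation, 0 passed and 7 were negative (median slope -0.24). Of 12 genes of B and plasma cells, 3 of them over background, 0 passed and 12 were negative (median slope -0.09, median rho -0.09). The median slope of all genes was -0.002.

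Ces1f had the smallest p among the steepest falling genes. Ces1f, a carboxylesterase, was at 11.79, 10.81 and 11.24 in the 3 mice lowest in Gsdmc4 and at 8.16, 8.20 and 7.11 in the 3 highest, with a median of 8.67. The 3 lowest mice lay above each of the other 17. Its slope was -0.92 ± 0.11 (adjusted p = 0.000484 in limma), and it was the only one of the 15 steepest falling genes that stayed called without any 1 mouse. G6pc, which releases glucose, had a slope of -0.82, the acyl-CoA thioesterase Acot12 -0.75, the aldo-keto reductase Akr1b7 -0.76, the nuclease Dnase1 -0.59, the steroid dehydrogenase Hsd17b6 -0.56 and Angptl4, an inhibitor of lipoprotein lipase, -0.55, with adjusted p between 0.0176 and 0.0399. Angptl4 was not over background (mean 6.27). Acot12 went from 12.58 in WT-NaCl3 46 to 8.20 in WT-NaCl7 206.

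Smaller slopes were those of the alcohol dehydrogenase Adh4 (-0.49), the decarboxylase Ddc (-0.48), the water and glycerol channel Aqp3 (-0.46), Aldh1a7 (-0.45) and the lipid phosphodiesterase Smpdl3b (-0.42), of which Adh4 was not over background (mean 6.12). Of 18 xenobiotic metabolism genes, Ces1f alone fell. Of 20 mid villus enterocyte genes, Mttp alone fell (slope -0.16, adjusted p = 0.0399), which loads fat onto lipoproteins, and the fatty acid transporter Slc27a4 fell too (-0.30, 0.0373). None of 15 villus tip genes, 17 genes of the proximal or 16 of the distal intestine passed, and 0 of 12 genes of epithelial identity and 0 of 8 reference genes did (median slopes -0.03 and -0.004).

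The genes with the lowest rho, chosen by it, were Mtf1 (-0.843), Dnase1 (-0.842), Usp35 (-0.837), Slc5a12 (-0.830), Acot12 (-0.817), Slc27a4 (-0.816), Klrd1 (-0.815), Ddx60 (-0.809), Wdpcp (-0.798) and Prss30 (-0.797). Of these, Dnase1, Acot12, Slc27a4 and Wdpcp passed the slope test, and Usp35, Klrd1 and Wdpcp were not over background. Mtf1 is the metal-responsive transcription factor, Slc5a12 a lactate transporter, Klrd1 a receptor chain of cytotoxic lymphocytes and Ddx60 an antiviral helicase.

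The genes that the study followed by RT-qPCR included Gsdmc2 and Gsdmc3, described above. None of the other 9 measured and reported here passed the slope test: the cytokines Tnf (slope -0.03) and Il1b (-0.01), the inflammatory caspase Casp1 (-0.09), the apoptosis gene Bax (0.01), the proteases Mmp2 (0.17) and Mmp12 (0.01), Serpina3n (0.24), Akr1b8 (-0.34) and Sftpd (-0.01). Caspases and inflammasome genes gave 0 of 19, and p53 targets 0 of 13. Nor did any of 10 intestinal stem cell markers, 18 cell cycle genes, 13 genes of macrophages and neutrophils or 10 of adipocytes pass, and of 15 fasting genes Angptl4 alone fell.

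**Figure D3:**
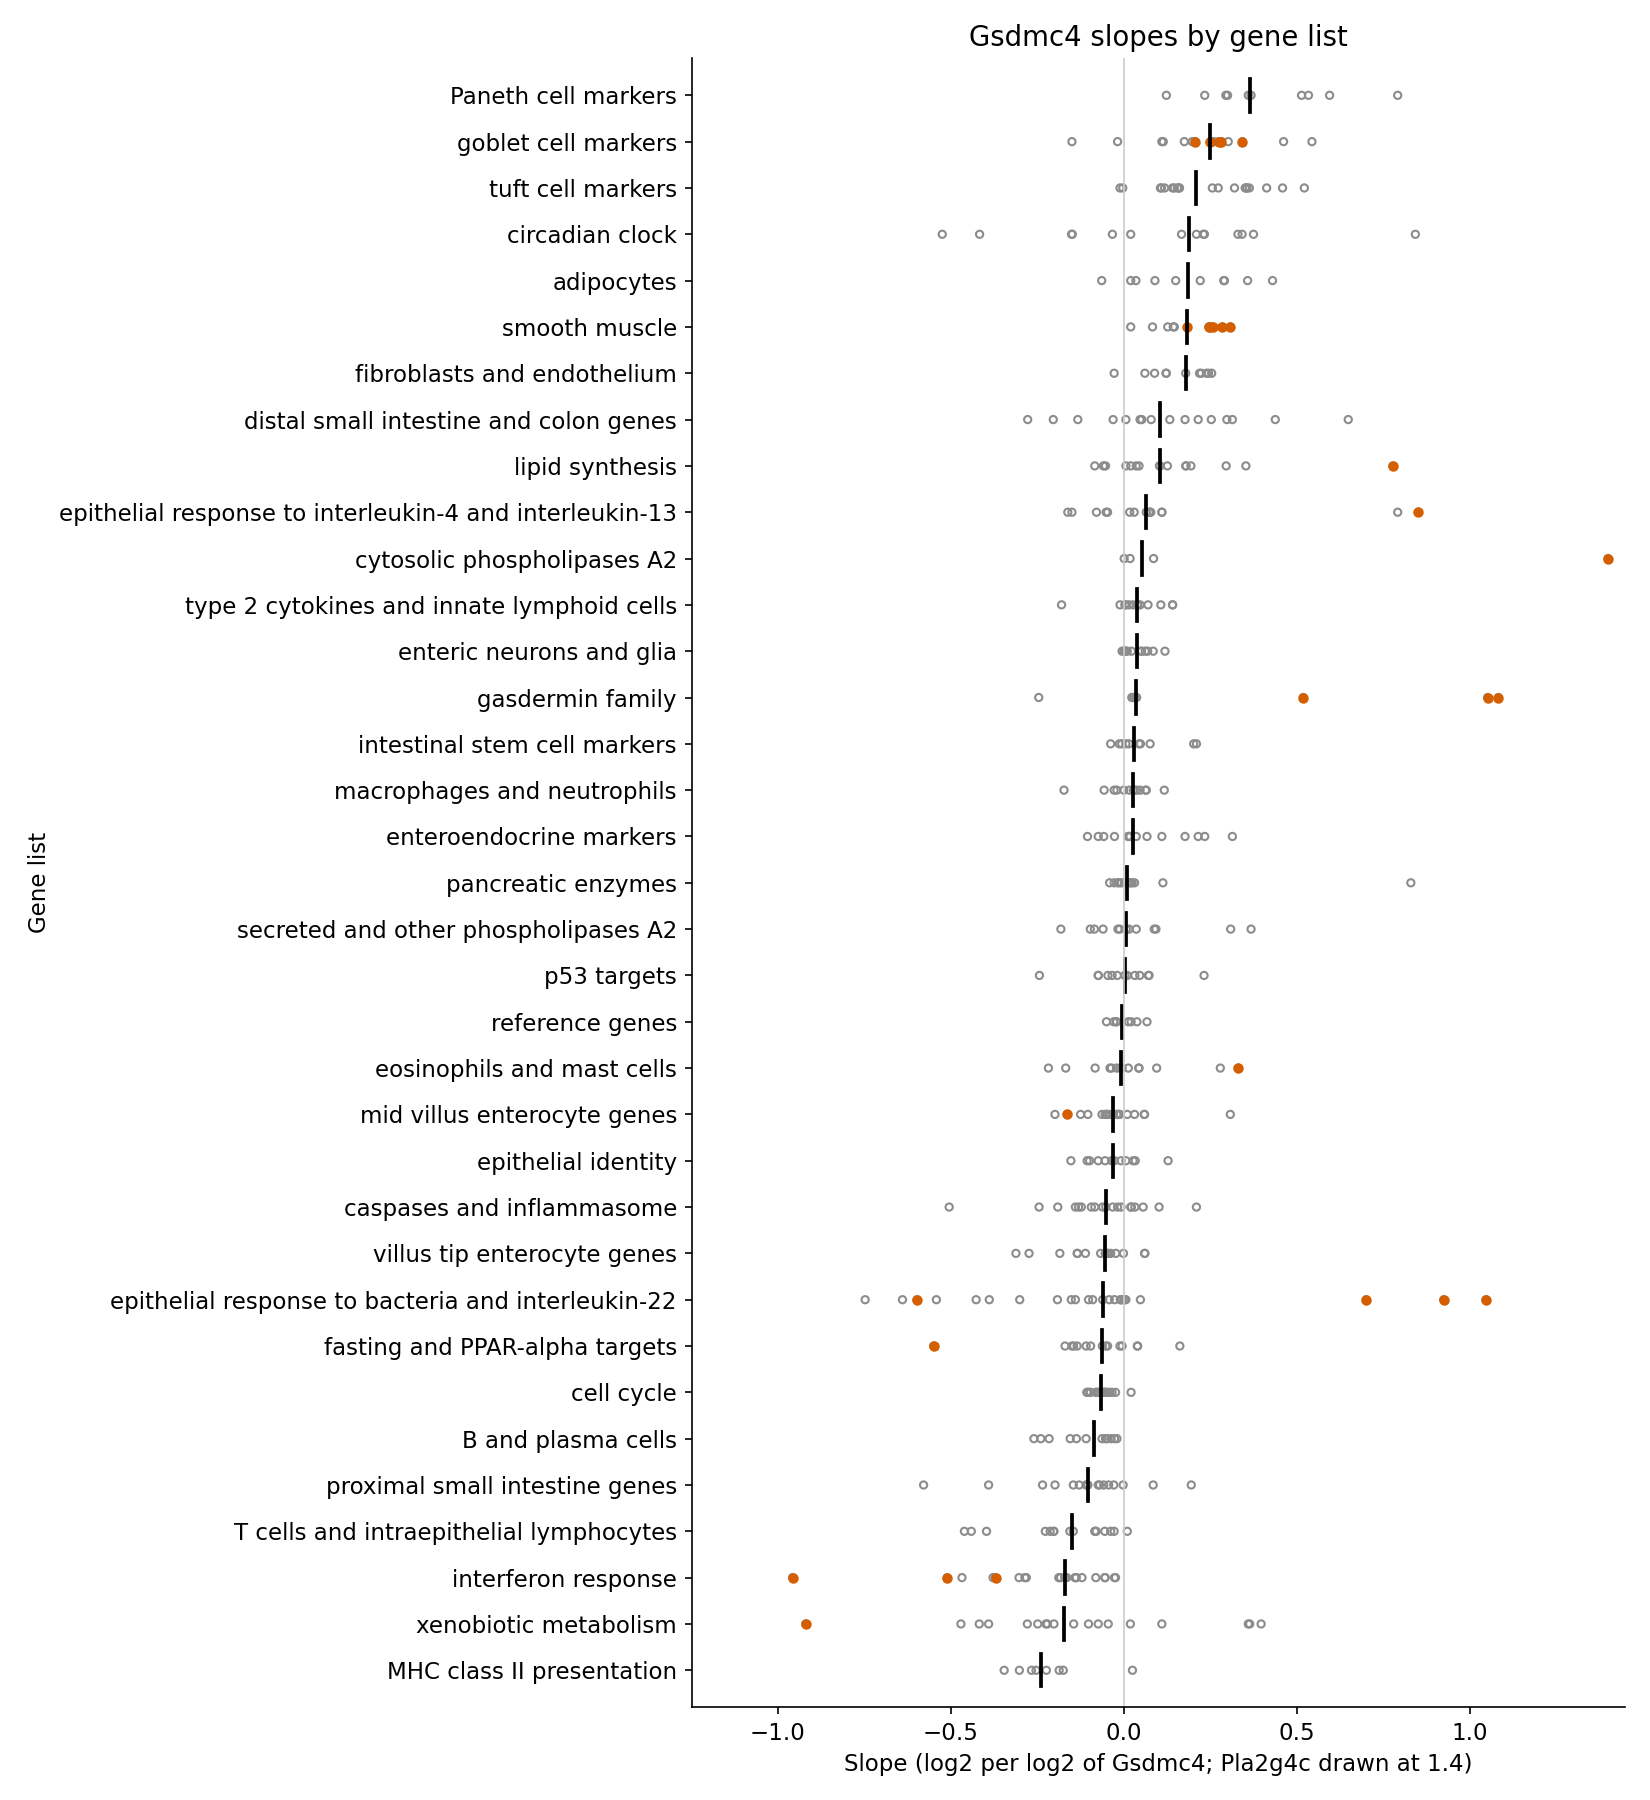
Slope on Gsdmc4 (x axis, log2 per log2) of each measured gene of each gene list (rows). Filled orange points passed the limma test, open grey points did not, and the black bar is the list's median, with lists ordered by it. The filled points stand mostly in the gasdermin, goblet, smooth muscle, bacterial and interferon response lists, and Pla2g4c, at 2.53, is drawn at the right edge.

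No clock gene passed the slope test (0 of 14), while a difference of 2 of them correlated with Gsdmc4 within groups. The difference between Arntl (Bmal1) and Dbp, which peak at about opposite times of day, was between -3.71 in WT-NaCl3 190 and 4.62 in WT-NaCl7 28. Over the 20 mice its r with Gsdmc4 was -0.27 (permutation p = 0.254), and -0.70 as deviations from the group means. Arntl had a slope of -0.53 (adjusted p = 0.158 in limma) and Dbp 0.84 (0.058). With this difference as a covariate, 6 clusters rose and 0 fell, among them those of Duox2 (adjusted p = 0.00312), Duoxa2 (0.00366), Gsdmc2, Gsdmc3 and Pla2g4c. All 223 genes kept their sign in this fit, at a median of 0.788 of the slope without the covariate. The time of day at which the mice were killed is not given in the sources used here. The part that the clock and muscle measures have in the slopes was not tested further.

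The relation was then taken within each day. Each of the 155 rising and 68 falling genes had the same sign at day 3 and at day 7. At an unadjusted p under 0.05, all 155 and all 68 passed at day 3 alone, and 138 and 44 at day 7 alone, although these genes were chosen by the fit over both days, so that the counts are a description. The difference between the days was called for 0 of 65955 clusters (0%) in limma, with 2540 at an unadjusted p under 0.05. The day 3 arrays carried most of the spread in Gsdmc4, with an SD of 1.90 against 0.80 at day 7. Duoxa2 had slopes of 1.16 at day 3 and 0.62 at day 7 (unadjusted p of the difference 0.00779), Capn13 0.89 and 1.5, and Fut2 0.55 and 1.25. Pla2g4c had slopes of 2.59 and 2.31. The signs were the same in WT and KO mice for all 223 genes, which is again a description, as the genes were chosen by the fit over both genotypes. A difference between genotypes was called for 0 clusters in limma, with 4541 at an unadjusted p under 0.05.

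**Figure D4:**
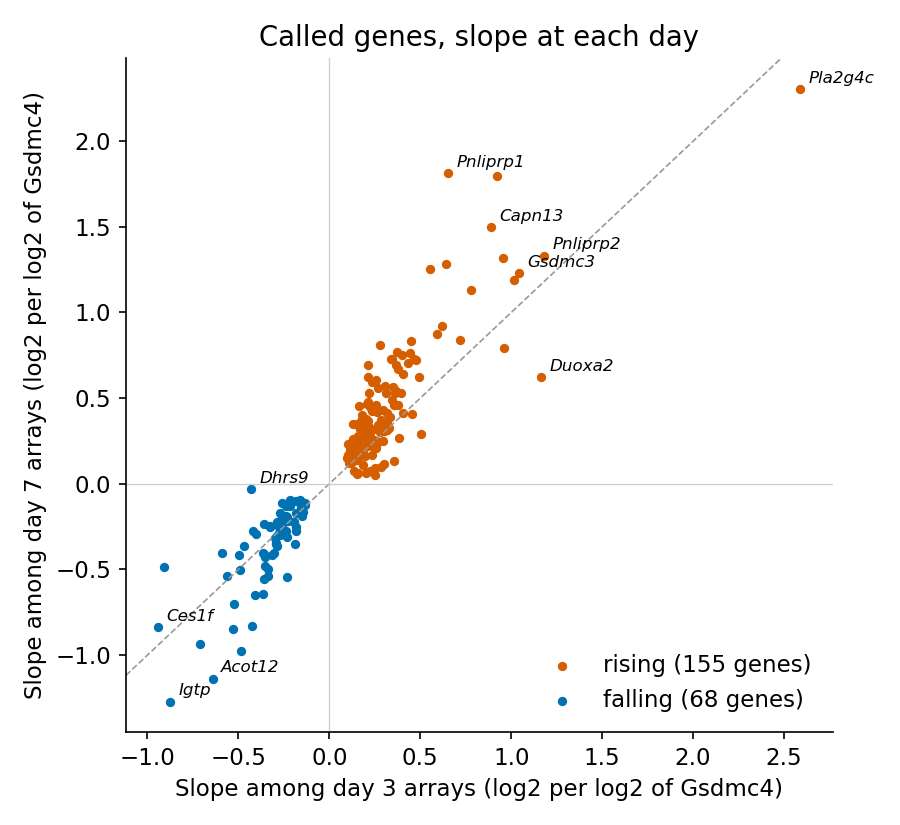
Slope on Gsdmc4 among day 3 mice (x axis) and day 7 mice (y axis), both in log2 per log2, for the 155 rising (orange) and 68 falling (blue) genes, 1 point per gene, with a dashed line of equal slopes. The orange points are positive on both axes and the blue points negative on both, and the genes were chosen by the slope over both days.

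The slope was also fitted in the 20 doxorubicin mice, which the order did not use. Gsdmc4 ran there from 5.30 to 19.22, with means of 7.18 ± 1.97 (SD, n = 5) in KO-Dox3, 9.0 ± 2.70 in WT-Dox3, 12.11 ± 0.59 in KO-Dox7 and 15.08 ± 2.91 in WT-Dox7. The median of KO-Dox3 (6.56) and the lowest value of WT-Dox3 (6.80) were under the highest background value, so that slopes in these arrays rest in part on Gsdmc4 signals not clearly above background. Over 65955 clusters, 22 rose (0.0334%) and 10 fell (0.0152%), with 5318 at an unadjusted p under 0.05. Of the 155 genes that rose in saline mice, 143 (92.3%) had a positive slope after doxorubicin, where 50.9% of all 36154 genes did. An unadjusted p under 0.05 with a positive slope was reached by 84 of the 155 (54.2%), against 4.58% of all genes. Of the 68 falling genes, 59 (86.8%) had a negative slope and 25 (36.8%) an unadjusted p under 0.05, against 3.69% of all genes. No gene of either set passed that value in the opposite direction.

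Called after doxorubicin were 28 genes, of which 19 (67.9%) were also called in saline mice, which is 8.5% of the 223. They were 16 rising and 3 falling genes. Pla2g4c had a slope of 1.23 ± 0.14 (adjusted p = 0.0014 in limma), although 3 of the 4 group medians were under the highest background value. Retnlb had 0.51 ± 0.048 (6.48e-05), Capn13 0.56 ± 0.073 (0.00411) and Me1 0.59 ± 0.076 (0.00411). Smpdl3b fell with -0.32 ± 0.050 (0.0251). Further genes called in both sets, named after their values were seen, were the goblet cell product Clca3 (slope 0.36 in saline, 0.28 after doxorubicin), the actin-severing protein Scin (0.40 and 0.20), the glutamate transporter Slc1a1 (0.44 and 0.23) and the sodium channel subunit Scnn1a (0.28 and 0.14). Gsdmc2 and Gsdmc3 had slopes of 1.02 and 0.99.

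Other leading genes were not called after doxorubicin. Duox2 had a slope of 0.29 ± 0.080 and Duoxa2 0.41 ± 0.11, with unadjusted p of 0.00166 and 0.00129 and adjusted p of 0.257 and 0.235 in limma. Fut2 had 0.05 ± 0.11 (adjusted p = 0.953), Guca2a 0.01 (0.967), Igtp -0.14 (0.76), Ces1f -0.10 (0.849) and Rsad2 -0.03 (0.914). Whether these slopes differ from those in saline mice was not tested. Of the 20 tuft cell markers, 14 had a positive slope at an unadjusted p under 0.05 and 0 a negative one, and of the 15 goblet cell markers 8 and 3. Of the 11 smooth muscle genes 3 did, with a correlation between the list mean and Gsdmc4, as deviations from group means, of 0.21 after doxorubicin and 0.80 in saline mice. By the same measure the clock difference had 0.23 after doxorubicin and -0.70 in saline mice, and the goblet list mean 0.37 and 0.81. The pancreatic enzyme mean, with Clps alone over background in saline mice, had 0.71 and 0.68.

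**Figure D5:**
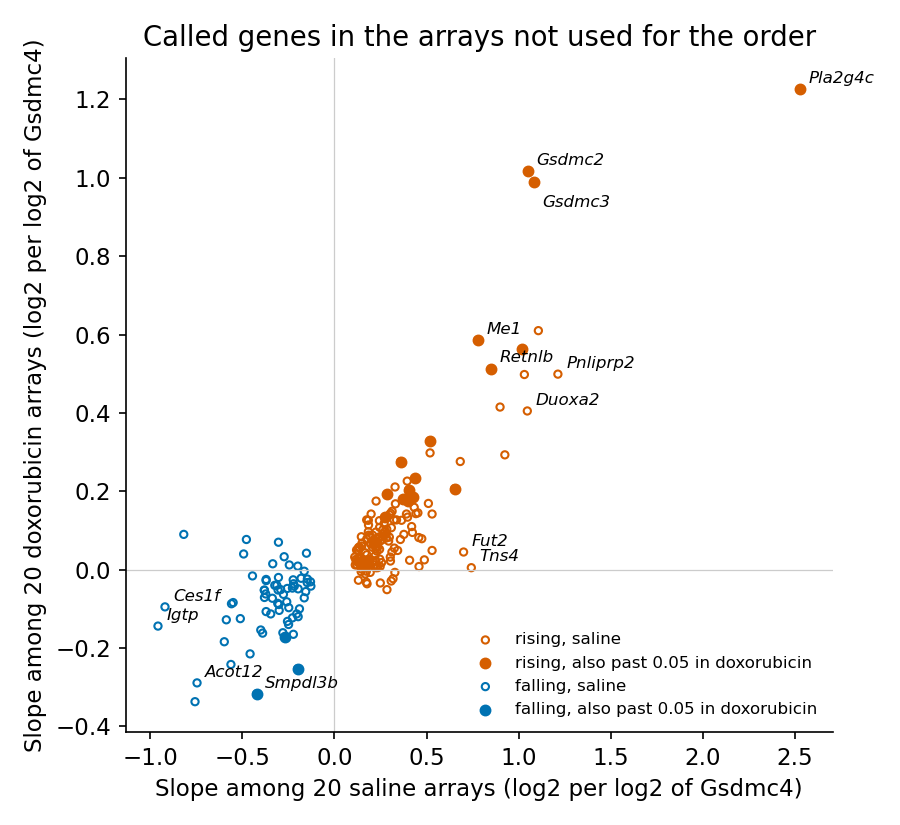
Slope on Gsdmc4 among the 20 saline mice (x axis) and among the 20 doxorubicin mice (y axis), both in log2 per log2, for the 155 rising (orange) and 68 falling (blue) genes, filled where also called after doxorubicin. Most points lie on the same side of 0 on both axes (143 and 59 genes), and nearer to 0 after doxorubicin.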

How the data were processed

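Jejunal RNA of 40 mice was hybridised to Affymetrix Mouse Transcriptome Arrays. The authors deposited log2 signals for 72688 probe sets. The submitters' processing notes name RMA, the Affymetrix Expression Console and the Transcriptome Analysis Console, whereas the study's methods name normexp and quantile normalization in limma. The authors' tables of folds and p-values from the Transcriptome Analysis Console hold their own comparisons and were used only for annotation. Signals were used as deposited, without 6732 control sets. This left 65956 transcript clusters, of which 36559 carry 1 symbol, 3042 several and 26355 none. A gene was its brightest cluster with 1 symbol (36155 genes). Positions are on GRCm38, where 99.3% of 28563 symbols overlap the RefSeq gene. Sequences are from RefSeq.

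Slopes on Gsdmc4 were fitted with limma 3.58.1 in R 4.3.3 with a mean per group (lmFit, eBayes, two-sided, Benjamini-Hochberg over 65955 clusters, threshold 0.05), then with a slope per day, per genotype, and in the doxorubicin arrays. Correlations had two-sided permutation tests with 100000 resamples (scipy 1.17.1), in which the mice were permuted without regard to group. The order itself was not tested. The fit was checked on simulated data. Each mouse was taken as 1 replicate, and the number of arrays limits the precision. The 36 gene lists held 518 genes, of which 481 were matched. Named genes were the gasdermin and cytosolic phospholipase families, the 15 steepest slopes and 10 extreme rho in each direction, up to 4 genes of each list by smallest p, and the genes taken to RT-qPCR, of which 1 is not reported here. The members, lists and rules were chosen with earlier results of these data known. The alternatives were other group terms, normalizations, filters, variances, covariates and the omission of each mouse, and the omission of the 2 lowest mice was added after seeing the data.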

Additional observations from a re-analysis of the deposited data

Results flagged for a closer look

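Single mice were set against the other 4 of their group for 32 genes in 128 groups, by the gap to the nearest mouse divided by the group's range, with a critical value of 0.71. Mouse KO-NaCl7 200 was far below its group in 2 of the 15 steepest falling genes. G6pc was at 8.50 in this mouse and at 10.10–10.71 in the other 4 (gap over range 0.724). Hsd17b6 was at 10.00 in this mouse and at 11.18–11.31 in the others (0.901). Chance flags about 1 in 20 groups, more than the 2 seen.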

How the results depend on the processing

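No paired analysis was possible because the groups share no mouse numbers. The counts of rising and falling clusters, 180 and 82, depended on the setting. Rising clusters were 482 without group means, 375 with means for day only, 293 after quantile normalization again, 116 with trend and robust variances, 91 with the array spread as a covariate, 88 with centred arrays, 81 with array weights, 41 with distal gut genes, 6 with the clock and 3 with smooth muscle genes as a covariate. Falling clusters were 264 without group means, 136 with day only, 132 over clusters with 1 symbol, 143 over the brighter 32973 clusters, 43 with trend and robust variances, 35 without the 2 lowest mice (added after seeing the data), 30 with array weights, 28 with the spread, 27 with centred arrays, 26 with ranks of Gsdmc4, 18 with distal gut genes, and 0 with the clock or smooth muscle genes. After doxorubicin, 22 rose and 10 fell, against 730 and 1515 without group means, 39 and 48 with day only, and 13 and 0 with the spread. Falling counts there were also 4 (trend), 5 (quantile) and 6 (centred). The cause of these moves was not tested.

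Leaving out 1 mouse gave 39 to 217 rising clusters and 7 to 205 falling ones, 5 to 33 and 0 to 14 after doxorubicin, and 0 to 0 that differed between days. Rising clusters moved by over 1.5 times without KO-NaCl3 254 (39), WT-NaCl7 296 (49) or 206 (54), KO-NaCl3 168 (93), WT-NaCl7 28 (100), and KO-NaCl3 182 (115) or 220 (118). Falling clusters did so without KO-NaCl3 254 (7), WT-NaCl7 296 (9), 206 (15), WT-NaCl3 46 (28), 44 or KO-NaCl3 168 (30 each), 182, 220 or WT-NaCl7 28 (37 each), 112 (48), 104 (50), WT-NaCl3 190 (51) or 170 (205).

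Of 70 named genes, 57 kept sign and call without group means, 64 after quantile normalization again and 70 with the mean of all clusters. Slopes that turned sign were small. Without group means they were -0.037 for Dfna5, -0.011 for Dfnb59, -0.014 for Pla2g4d, 0.012 for Il1b and -0.002 for Bax, and after quantile normalization -0.015 for Pla2g4d and 0.004 for Il1b. Without 1 mouse the slopes ran from -0.024 to 0.084 for Dfna5, -0.007 to 0.033 for Dfnb59, -0.009 to 0.012 for Pla2g4d, -0.034 to 0.024 for Il1b, -0.01 to 0.023 for Bax and -0.007 to 0.027 for Mmp12. Signals near background limit genes under 6.99.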
